A study of Mus musculus with 8 samples.

Results

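Hepatocytes of mice without hepcidin were compared with wild-type hepatocytes after carbon tetrachloride (CCl4), which the liver turns into a reactive radical that kills cells around the central veins. The comparison used 4 of the 8 libraries of the series, and 9742 of the 16337 genes in the table had at least 1 FPKM (sequenced fragments divided by transcript length and by the library's mapped total) in at least 2 of the 4 libraries and were tested. The other 6595 genes were not tested. Male C57BL/6 mice and male Hamp-/- mice, aged 4 weeks, had received 12.5% CCl4 in olive oil for 24 h, in a volume that the labels do not give. The matching oil groups of both genotypes, with 2 libraries each, entered the same model and show which differences were there without the toxin. Each group was stated to hold 6 mice, but was represented by 2 libraries of RNA from primary hepatocytes isolated by collagenase digestion. The labels name no cell-type driver for the Hamp-/- allele and do not give its genetic background. The labels do not say whether the pair of libraries in a group stands for different mice, and the p-values below therefore describe library-to-library spread that could be technical.

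Hepcidin, the product of Hamp, is a peptide hormone that hepatocytes secrete when iron or inflammatory signals are high, and that closes the iron exporter ferroportin on gut cells and macrophages. PERK, the kinase encoded by Eif2ak3, sits in the membrane of the endoplasmic reticulum, where unfolded proteins activate it. It then slows translation and lets the transcription factor ATF4 be made, which drives genes of amino acid supply and, through CHOP (Ddit3), genes of cell death. A separate arm of the same stress response, through ATF6 and XBP1, raises the chaperones of the endoplasmic reticulum. The title of the series names hepcidin, the PERK pathway and apoptosis, so these genes are described first.

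The promoters of a few of these genes are shown because members of the 2 arms moved in opposite directions in the knockout. The letters are the 250 bases before the annotated start of each gene, from RefSeq on GRCm38.p6 and written 5′ to 3′ on the strand of the gene. Capitals mark the exact letters of the endoplasmic reticulum stress element, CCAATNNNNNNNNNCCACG, in Hspa5 (chr2:34771840-34772089, plus strand) and Creld2 (chr15:88819396-88819645, plus strand). They mark the C/EBP-ATF response element, written TGATGNAAN, in Asns (chr6:7693210-7693459, minus strand) and Fgf21 (chr7:45615491-45615740, minus strand). Both motifs were searched on both strands, and in Creld2 and Fgf21 the match lay on the opposite strand. The window of Eif2ak3 (chr6:70844265-70844514, plus strand) held neither set of letters.
Hspa5: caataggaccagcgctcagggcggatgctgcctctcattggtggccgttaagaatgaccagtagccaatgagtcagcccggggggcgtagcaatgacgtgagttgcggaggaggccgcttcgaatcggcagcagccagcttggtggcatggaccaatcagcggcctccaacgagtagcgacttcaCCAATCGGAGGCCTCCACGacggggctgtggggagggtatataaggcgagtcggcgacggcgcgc
Creld2: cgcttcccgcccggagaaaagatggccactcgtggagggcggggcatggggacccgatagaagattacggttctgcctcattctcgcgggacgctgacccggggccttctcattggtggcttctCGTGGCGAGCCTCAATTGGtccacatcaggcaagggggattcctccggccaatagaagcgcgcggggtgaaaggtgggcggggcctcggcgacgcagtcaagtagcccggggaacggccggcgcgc
Asns: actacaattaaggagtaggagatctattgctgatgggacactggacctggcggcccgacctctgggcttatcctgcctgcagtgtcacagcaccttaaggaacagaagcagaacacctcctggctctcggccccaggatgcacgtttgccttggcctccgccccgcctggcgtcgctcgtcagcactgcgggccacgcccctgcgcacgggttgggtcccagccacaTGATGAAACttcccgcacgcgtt
Fgf21: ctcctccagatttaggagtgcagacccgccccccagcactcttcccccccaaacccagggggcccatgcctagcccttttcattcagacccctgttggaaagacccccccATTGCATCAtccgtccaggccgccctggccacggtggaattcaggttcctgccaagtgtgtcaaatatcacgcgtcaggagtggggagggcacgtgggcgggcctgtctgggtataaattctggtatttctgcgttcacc
Eif2ak3: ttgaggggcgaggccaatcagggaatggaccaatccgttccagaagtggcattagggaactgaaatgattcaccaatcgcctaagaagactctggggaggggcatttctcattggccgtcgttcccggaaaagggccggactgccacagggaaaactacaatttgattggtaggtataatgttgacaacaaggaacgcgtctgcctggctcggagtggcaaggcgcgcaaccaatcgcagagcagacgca

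Across the 4 CCl4 libraries, replicates correlated across genes with Pearson's r of 0.982 for the knockout pair and 0.998 for the wild-type pair, and libraries of different genotype with r of 0.883 to 0.908. Wild-type CCl4 and oil libraries correlated with r of 0.972 to 0.975, and the oil libraries of the wild type held acute phase transcripts at levels like those after CCl4 (values below). The treatment label of the wild-type oil libraries is therefore open to doubt, and every difference in oil and every genotype by treatment term rests on it. Cyp2e1, however, was lower in every CCl4 library than in every oil library, the wild type included. The knockout replicates were the more variable pair: the SD of the log2 difference between replicates was 0.398, against 0.136 in the wild type. This difference between knockout replicates followed the GC content of the transcripts (Spearman's rho 0.697 across genes) and recurred between the knockout oil libraries (r = 0.807 across genes). Each gene list below was therefore also counted without knockout replicate 2, and with GC and length trends removed, and wherever more members of a described list were called in one direction than in the other, that direction was the same in those counts. Sequencing depth is unknown, because the files hold FPKM only, and fold changes on the log2(FPKM + 1) scale understate the change of low genes.

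Hamp checked the labels of genotype, not those of treatment. It stood at 0.98 and 0.83 FPKM in the knockout libraries and at 1273 and 1136 FPKM in the wild-type libraries after CCl4. Its difference was -9.30 ± 0.36 on the log2(FPKM + 1) scale (SE, n = 2 per group, limma adjusted p = 4.9e-06). The SE here and below comes from a spread shared by all 4 groups of the model, so a gene has the same SE after CCl4 and in oil. For Hamp the pair farthest apart on the log2 scale was the knockout in oil, at 2.72 and 0.54 FPKM. Hamp2, the neighbouring paralog with a very similar sequence, was listed at 0 in both knockout libraries and at 76.0 and 68.1 FPKM in the wild type, so no fold is given. Reads could be shared between the paralogs, and the files do not say which of them the allele removes. Usf2, the gene next to Hamp on the other side, was chosen after its values were seen: it stood at 29.4 and 36.4 FPKM in the knockout and 30.2 and 27.6 FPKM in the wild type (adjusted p = 0.24).

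Eif2ak3 was called higher, with a difference of 3.0 ± 0.11 in log2(FPKM + 1) (limma adjusted p = 4.1e-06), while the chaperones of the endoplasmic reticulum were mostly lower and Ddit3 was not called. Eif2ak3 had 37.5 and 35.4 FPKM in the knockout and 3.33 and 4.09 FPKM in the wild type after CCl4. In oil, its libraries lay between 2.96 and 3.99 FPKM in both genotypes. The knockout libraries given CCl4 thus stood above the other 6, which lay within a narrow range. The genotype difference after CCl4 minus that in oil, called the genotype by treatment term here, was 2.74 on the log2 scale for Eif2ak3 (adjusted p = 5.3e-05). The other kinases that phosphorylate the same translation factor did not share this size of change: Eif2ak4 (GCN2, which senses amino acid shortage) rose by 0.57, Eif2ak1 (HRI, which senses heme) had -0.09 with adjusted p = 0.32, and Eif2ak2 (PKR, which senses double-stranded RNA) fell by 1.20. The call of Eif2ak2 was lost without knockout replicate 2 (adjusted p = 0.093) and without either wild-type replicate (0.090 and 0.082).

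Atf4 had 55.1 and 67.7 FPKM in the knockout and 40.7 and 36.6 FPKM in the wild type, a difference of 0.65 ± 0.12 (adjusted p = 0.0033). Ddit3, which encodes CHOP, had 14.9 and 16.6 FPKM against 16.3 and 13.7 FPKM, a difference of 0.07 ± 0.14 (adjusted p = 0.69). The groups were apart for Atf4, as for 80.7% of all genes tested, and overlapped for Ddit3. FPKM reports transcript, and neither PERK phosphorylation nor translation of ATF4 was measured here.

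Of 30 tested members of the PERK, ATF4 and CHOP list, 16 were higher in the knockout after CCl4 and 6 lower, or 53.3% and 20% of the list. Over all genes tested, 30.3% were called higher and 27.4% lower. The median log2 difference of the list was 0.61 after CCl4 and 0.61 in oil, against medians of -0.02 and 0.05 over all genes. The list thus stood as high in oil, where 16 members were also higher and 1 lower (22% and 10.8% of all genes tested). The genotype by treatment term was called positive for 4 members and negative for 10. Over all genes it was positive for 14.7% and negative for 18.9%.

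Gdf15, a stress hormone that limits appetite, had 166 and 198 FPKM in the knockout and 25.4 and 20.1 FPKM in the wild type, a difference of 2.95 ± 0.15 (adjusted p = 1.7e-05). Psat1, an enzyme of serine synthesis, had 11.3 and 12.2 against 1.39 and 1.58 FPKM (2.36 ± 0.22, adjusted p = 1.9e-04). Atf3, a transcription factor downstream of ATF4, had 21.2 and 24.4 against 6.85 and 7.26 FPKM (1.56 ± 0.10, adjusted p = 4.2e-05). In each of these genes both knockout libraries exceeded both wild-type libraries, and the groups did not overlap for 80.7% of all genes tested. Ppp1r15a, which encodes the GADD34 subunit that reverses the translation block, rose by 1.26 and Fgf21, a hepatic fasting and stress hormone, by 1.16. Asns, asparagine synthetase, rose by 0.98, a call that was lost without knockout replicate 2 (adjusted p = 0.069) or either wild-type replicate (0.053 and 0.096).

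Other members of the list went the opposite way. Cth, which makes cysteine from cystathionine, had 20.9 and 20.3 FPKM in the knockout and 164 and 178 FPKM in the wild type (-2.99 ± 0.07, adjusted p = 1.3e-06). Atf5, a mitochondrial stress factor, fell by 0.63 after CCl4 where it had been 0.68 higher in oil, and Shmt2, a mitochondrial serine hydroxymethyltransferase, fell by 1.07. The motif of the C/EBP-ATF response element lay in 8 of 31 list genes with a promoter window, against 3.89% of 27025 genes with a window. Of the 8 genes, 6 were tested. Of those 6, 4 were higher and 1 lower, with a median difference of 1.07 against 0.65 in the 21 tested members without it.

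The chaperones and degradation factors of the endoplasmic reticulum were lower as a list: 20 of 31 tested members fell and 2 rose, 64.5% and 6.45% of the list. Over all genes tested, 27.4% were called lower and 30.3% higher. The median log2 difference of the list was -0.89 after CCl4 and -0.71 in oil, with 19 members lower in oil (10.8% of all genes tested). Hspa5, which encodes the main chaperone BiP and holds the exact element in its promoter, had 303 and 245 FPKM in the knockout and 710 and 721 FPKM in the wild type (-1.39 ± 0.12, adjusted p = 1.2e-04). Creld2, a secreted stress protein with the element on its other strand, had 21 and 23.5 against 99.1 and 96.7 FPKM (-2.09 ± 0.08, adjusted p = 5.4e-06). Neither gene's groups overlapped, as for 80.7% of all genes tested.

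Pdia4, a disulfide isomerase, fell by 1.5, and Hyou1, a large heat shock protein of the same compartment, fell by 1.47. Manf, a secreted stress factor, fell by 1.66, and Syvn1, a ubiquitin ligase for misfolded proteins, fell by 1.62. The genotype by treatment term was called for 3 members of the list, 1 positive and 2 negative, against 14.7% and 18.9% of all genes. Hspa5 had -1.32 in oil as well, and its term was -0.07 (adjusted p = 0.78). The exact element was found in 9 of 25 list genes with a window, against 0.13% of all genes with a window (35 genes). Of these 9 genes, 8 fell and none rose, with a median difference of -1.39 against -0.67 in the other 16. The match of letters is a description of these windows and shows no binding.

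**Figure D1:**
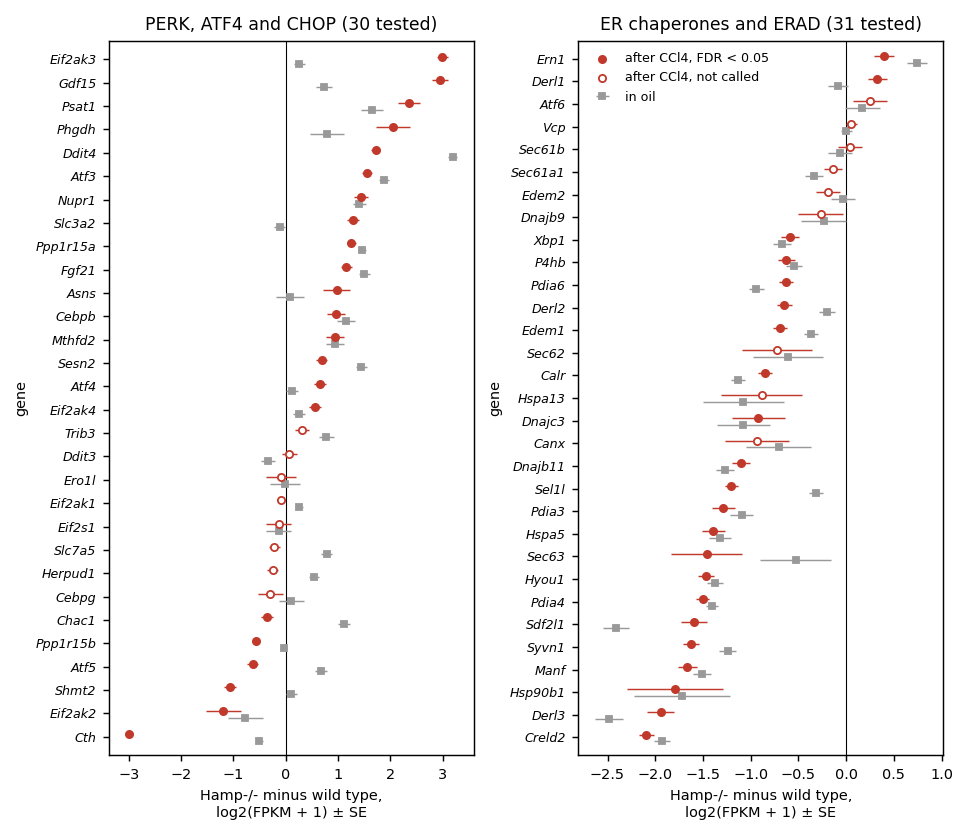
Difference between Hamp-/- and wild-type hepatocytes in log2(FPKM + 1) for each tested member of the PERK, ATF4 and CHOP list (left) and the list of endoplasmic reticulum chaperones and degradation factors (right). Red circles show the difference after CCl4, filled where FDR was under 0.05, and grey squares the difference in oil. Bars show the SE of the model, whose spread is shared by all 4 groups of 2 libraries. Eif2ak3 at 3.0 stands apart from its oil value, while Hspa5 lies at -1.39 after CCl4 and -1.32 in oil.

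Of 34 tested members of the apoptosis list, 15 were higher in the knockout after CCl4 and 11 lower. Their median difference was 0.14, but -0.04 with GC and length trends removed. The counts are 44.1% and 32.4% of the list, against 30.3% and 27.4% of all genes tested, so that the lower share was near that of all genes. Tnfrsf12a, the receptor of the cytokine TWEAK, had 284 and 346 FPKM in the knockout, 24.3 and 20.2 FPKM in the wild type and between 7.48 and 9.54 FPKM in oil. Its difference after CCl4 was 3.76 ± 0.14 (adjusted p = 4.6e-06). Both knockout libraries given CCl4 were far above the other 6.

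Among BCL2 family members, Bcl2l1, which encodes the survival factor BCL-XL, had 72.7 and 82.5 FPKM in the knockout and 17.1 and 15.9 FPKM in the wild type (2.16 ± 0.11, adjusted p = 1.4e-05). Bax, the pore former it opposes, had 59.9 and 70.1 against 22.5 and 22.3 FPKM (1.49 ± 0.12, adjusted p = 1.2e-04). A survival gene and a death gene were thus both higher. Bid, which links death receptors to mitochondria, rose by 0.91, and Bbc3, the p53 target PUMA, by 1.08. Fas, a death receptor, fell by 2.13, from 12.8 and 13.3 FPKM in the wild type to 2.80 and 1.71 FPKM in the knockout.

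Xiap, an inhibitor of apoptosis, had 5.16 and 1.32 FPKM in the knockout and 12 and 13.8 FPKM in the wild type, a difference of -1.88 ± 0.64 (adjusted p = 0.041). The knockout replicates of Xiap differed widely, and without replicate 2 the difference was -1.18 with adjusted p = 0.19. The call of Xiap was lost as well without either wild-type CCl4 library (adjusted p = 0.12 and 0.15) or either wild-type oil library (0.071 for each). Ripk3, a kinase of necroptosis, had 1.59 and 1.54 against 0.48 and 0.47 FPKM, a rise of 0.80. BCL2 family and death receptor transcripts do not measure cell death, which these files hold no value for.

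Of 18 tested p53 targets, 9 were higher and 3 lower, 50% and 16.7% against 30.3% and 27.4% of all genes. Cdkn1a, the cell cycle inhibitor p21, had 33.9 and 37.8 FPKM in the knockout and 2.73 and 2.75 FPKM in the wild type (3.30 ± 0.12, adjusted p = 3.7e-06). It was higher in the knockout in oil as well, at 5.78 and 6.55 against 0.50 and 0.29 FPKM. Plk3, a stress-activated kinase, had 142 and 177 against 14.8 and 14.3 FPKM (3.36 ± 0.13, adjusted p = 4.8e-06). Both genes were separated between the genotypes with a wide gap, while groups without overlap were found for 80.7% of all genes tested.

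Of 22 tested members of the pathway that induces hepcidin, 12 fell and 3 rose, with a median difference of -0.58. Without the deleted gene Hamp and its paralog Hamp2, 10 of 20 fell, 3 rose and 7 were not called, with a median of -0.48. These are 50% lower and 15% higher, against 27.4% and 30.3% of all genes. Hfe2, which encodes the BMP co-receptor hemojuvelin, had 2.32 and 2.25 FPKM in the knockout and 21.6 and 20.6 FPKM in the wild type (-2.75 ± 0.10, adjusted p = 4.5e-06). Atoh8, a transcription factor that follows BMP and SMAD signalling, had 0.32 and 0.44 against 7.07 and 5.16 FPKM (-2.35 ± 0.18, adjusted p = 7.7e-05). For both genes the oil libraries of the knockout were many times higher than its CCl4 libraries, at 19.7 and 23.3 FPKM for Hfe2 and 3.93 and 5.47 FPKM for Atoh8.

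Tfr2, the sensor of iron-loaded transferrin, fell by 0.54 (adjusted p = 0.0033), and among BMP targets Id3 fell by 0.65 and Id2 fell by 0.41. The call of Id2 was lost without wild-type replicate 2 (adjusted p = 0.059) and with GC and length trends removed (0.098). Id1, another BMP target, had 5.61 and 5.84 against 6.13 and 5.39 FPKM (adjusted p = 0.97). Hfe, which modifies the BMP signal, had a difference of -0.11 (adjusted p = 0.42), and of -0.20 with a call (adjusted p = 0.042) when replicates were blocked in the knockout alone. Tmprss6, the protease that cleaves hemojuvelin, had 117 and 145 against 120 and 115 FPKM (adjusted p = 0.32), and a difference of 0.30 with adjusted p = 0.038 without knockout replicate 1. Stat3, which carries interleukin-6 signals to the hepcidin promoter, rose by 1.07, from 26.8 and 26.5 to 54.5 and 59.8 FPKM.

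Of 34 tested genes of iron and heme handling, 8 were higher and 14 lower, 23.5% and 41.2% against 30.3% and 27.4% of all genes. The ferritin chains, which store iron, were both higher: Fth1 had 4200 and 4759 FPKM in the knockout and 1876 and 1794 FPKM in the wild type (1.28 ± 0.11, adjusted p = 1.5e-04), and Ftl1 rose by 0.97. In oil the adjusted p of these chains was 0.14 and 0.94. Ferritin is controlled mainly at translation, and its protein was not measured.

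Slc40a1, the exporter ferroportin that hepcidin acts on, had 46.0 and 31.6 FPKM in the knockout and 32.2 and 32.9 FPKM in the wild type (0.22 ± 0.17, adjusted p = 0.30). Its knockout replicates lay on either side of the wild type, with a difference of -0.04 without replicate 1 and 0.49 (adjusted p = 0.018) without replicate 2. With replicates blocked in the knockout alone it was called at 0.42 (adjusted p = 5.8e-04). Tfrc, the transferrin receptor, had 4.46 and 1.40 against 9.82 and 10.4 FPKM (-1.62 ± 0.58, adjusted p = 0.0495). That call was lost without knockout replicate 2 (-1.02, adjusted p = 0.22), either wild-type CCl4 library (adjusted p = 0.14 and 0.16) or either wild-type oil library (0.082 for each). Aco1, the iron regulatory protein IRP1, fell by 0.81.

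Hmox1, which breaks down heme, had 51.7 and 57.2 FPKM in the knockout and 13.5 and 11.7 FPKM in the wild type (2.03 ± 0.17, adjusted p = 1.2e-04). Among the enzymes of heme synthesis, Alas1 fell by 0.68, Alad fell by 1.21 and Cpox fell by 1.02. Alas1, which makes the first committed step, had been 1.54 higher in the knockout in oil, and its genotype by treatment term was -2.22 (adjusted p = 4.9e-05). Steap4, a metalloreductase that inflammation induces, had 2.45 and 1.99 against 58.5 and 60.9 FPKM (-4.24 ± 0.12, adjusted p = 2.1e-06).

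Over all genes, 5627 of 9742 were called between the genotypes after CCl4 (57.8%), 2956 higher in the knockout and 2671 lower. The groups did not overlap for any of the 5627, nor for 80.7% of all genes tested. At 2-fold or more, 774 were higher (7.94%) and 957 lower (9.82%). In oil, 3189 genes were called (32.7%), and the median size of the log2 difference was 0.28, against 0.47 after CCl4. With so many genes called, a single call places a gene with most others, and the sizes carry more than the calls.

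Cyp2a5, Afp, Cyp2a4 and Pdk4 had the largest increases among well expressed genes. Cyp2a5, a cytochrome that oxidizes coumarin and nicotine, had 2270 and 2512 FPKM in the knockout and 23.7 and 26.6 FPKM in the wild type (6.52 ± 0.09, adjusted p = 5.7e-07). Its close paralog Cyp2a4 had 1632 and 1846 against 18.1 and 29.2 FPKM. Reads of these near-identical genes cannot be told apart with certainty. In oil Cyp2a5 stood at 584 and 642 FPKM in the knockout and at 158 FPKM in both wild-type libraries, so that the gap between the genotypes was wider after CCl4.

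Afp, the fetal albumin relative that regenerating liver re-expresses, had 119 and 113 FPKM in the knockout and 0.59 and 0.40 FPKM in the wild type (6.29 ± 0.10, adjusted p = 5.8e-07). No oil library exceeded 0.68 FPKM for Afp. Pdk4, the kinase that holds pyruvate back from oxidation in fasting, had 87.7 and 69.7 against 0.52 and 0.57 FPKM, a difference of 5.68. These genes were near the floor in the wild type, and their fold changes on this scale are understated.

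Cidec and Hilpda, which coat and enlarge lipid droplets, rose by 5.14 and 4.63. Igfbp1, a binding protein for insulin-like growth factors that fasting induces, had 2074 and 2440 against 91.5 and 90.6 FPKM (4.61 ± 0.10, adjusted p = 9.5e-07). Ppp1r3g, a glycogen-targeting phosphatase subunit, rose by 5.39, with 32.3 and 38.5 FPKM in the knockout in oil, and its genotype by treatment term was not called (adjusted p = 0.12). Nid1, a basement membrane protein, rose by 4.59, the trafficking factor Rab30 by 4.44, the acyl-CoA thioesterase Acot2 by 4.33 and the surface protein Ly6d by 4.12.

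Cyp26a1, Apol7a and Cyp2c50 had the largest decreases after Hamp and Hamp2. Cyp26a1, which clears retinoic acid, had 0.12 and 0.06 FPKM in the knockout and 55.1 and 49.5 FPKM in the wild type (-5.61 ± 0.11, adjusted p = 7.2e-07). It was as clearly apart in oil, at 0.50 and 0.71 against 30.4 and 28.4 FPKM. Apol7a, an apolipoprotein L, had 0.71 and 0.44 against 53.7 and 52.4 FPKM after CCl4, but 39.5 and 40.4 against 62.6 and 62.2 FPKM in oil. Knockout libraries given CCl4 were thus alone at the bottom for Apol7a, whereas Cyp26a1 was low in all 4 knockout libraries.

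Cyp2c50 and Cyp2c54, cytochromes of a family with near-identical copies, had differences of -4.96 and -4.72, with adjusted p of 0.41 and 0.27 in oil. Hsd3b3, a steroid dehydrogenase, fell by 4.67 and Inmt, a methyltransferase of small amines, fell by 4.21. Sult2a8, a sulfotransferase of bile acids, fell by 4.45. Slco1b2, which takes up bile acids and bilirubin, had 17.1 and 4.68 FPKM in the knockout and 256 and 279 FPKM in the wild type (-4.73 ± 0.72, adjusted p = 0.0017), and -5.56 and -3.89 without knockout replicate 1 and 2. Tmem254b, a gene with near-identical neighbouring copies, had 20.2 and 1.40 against 179 and 125 FPKM, with -5.97 and -2.83 without knockout replicate 1 and 2.

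**Figure D2:**
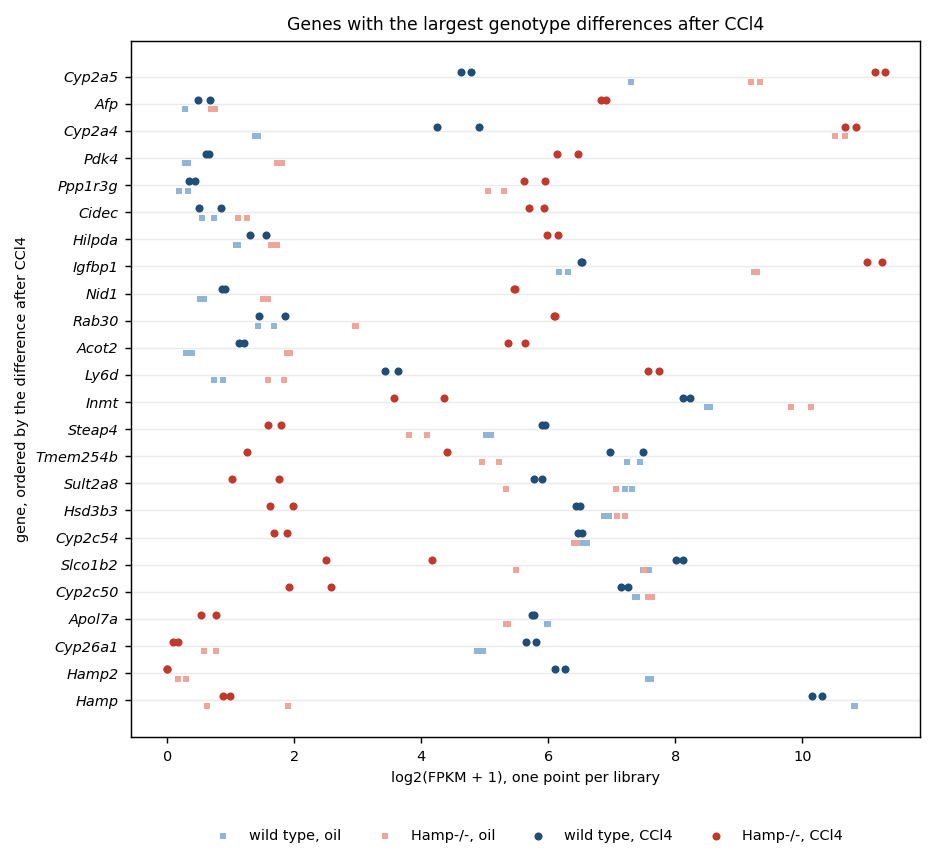
Level of each of the 24 genes with the largest genotype differences after CCl4 in log2(FPKM + 1), with 1 point for each of 8 libraries; circles are CCl4 libraries and squares oil libraries, red for Hamp-/- and blue for wild type. Genes such as Cyp2a4, Ppp1r3g and Cyp26a1 are apart in oil too, whereas Afp, Cidec, Apol7a and Cyp2c54 are apart after CCl4 alone to this extent.

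Most genes of drug, bile acid and amino acid metabolism were lower in the knockout after CCl4. Of 42 tested genes of drug oxidation 28 fell and 9 rose, of 30 bile acid genes 24 fell and 2 rose, and of 45 genes of urea and amino acid breakdown 35 fell and 8 rose. These are 66.7% and 21.4%, 80% and 6.67%, and 77.8% and 17.8%, against 27.4% and 30.3% of all genes tested. The median differences of these lists were -0.93, -0.88 and -0.98, against 0.11, 0.10 and -0.15 in oil. The genotype by treatment term was called negative for 24, 21 and 33 of these members, against 18.9% of all genes tested. In bulk RNA, fewer cells of a type and less RNA per cell cannot be told apart.

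Cyp2e1, the enzyme that turns CCl4 into its radical, had 49.8 and 27.7 FPKM in the knockout and 677 and 692 FPKM in the wild type (-4.17 ± 0.24, adjusted p = 2.5e-05). In oil it had 3031 and 3219 against 2552 and 2557 FPKM (adjusted p = 0.39). Every CCl4 library was below every oil library, and the knockout was the lower of the pair. Cyp1a2, another enzyme of the pericentral zone, fell by 2.82, and Cyp2c29, a cytochrome of drug clearance, fell by 3.09. Of 28 tested pericentral genes 18 fell and 6 rose, 64.3% and 21.4%. Of 28 periportal genes 13 fell and 10 rose, 46.4% and 35.7%. Over all genes tested 27.4% fell and 30.3% rose, and the periportal share that rose was near that of all genes.

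Baat, which joins amino acids to bile acids, had 6.37 and 6.81 against 74.0 and 76.4 FPKM (-3.33 ± 0.07, adjusted p = 1.1e-06). Cyp8b1, which sets the share of cholic acid, fell by 3.25 and Cyp27a1, a sterol hydroxylase, fell by 2.34. Abcg5, which exports cholesterol into bile, rose by 1.54. Bhmt, a methyl donor enzyme of the methionine cycle, had 28.8 and 26.6 against 478 and 491 FPKM (-4.08 ± 0.07, adjusted p = 7.2e-07). Hpd, an enzyme of tyrosine breakdown, fell by 3.13, whereas Got1, the cytosolic aspartate aminotransferase, rose by 2.41. Most enzymes of this group went down, with a few clear rises among them.

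The transcription factors of mature hepatocytes were lower as well, 21 of 31 tested members falling and 6 rising, with a median difference of -0.69 and of 0.04 in oil. These are 67.7% lower and 19.4% higher, against 27.4% and 30.3% of all genes tested. Nr1i3, the drug sensor CAR, had 6.12 and 7.50 against 85.2 and 73.2 FPKM (-3.36 ± 0.12, adjusted p = 4.6e-06). Nr1h4, the bile acid receptor FXR, fell by 1.44 and its target Nr0b2 fell by 2.11. Hnf4a, a central factor of hepatocyte identity, had 75.0 and 81.1 against 124 and 128 FPKM (-0.69 ± 0.07, adjusted p = 2.6e-04). Of the clock genes, 11 of 20 fell and 3 rose, 55% and 15%, against the same shares of all genes. Bhlhe41, a repressor among the clock genes, rose by 2.18.

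**Figure D3:**
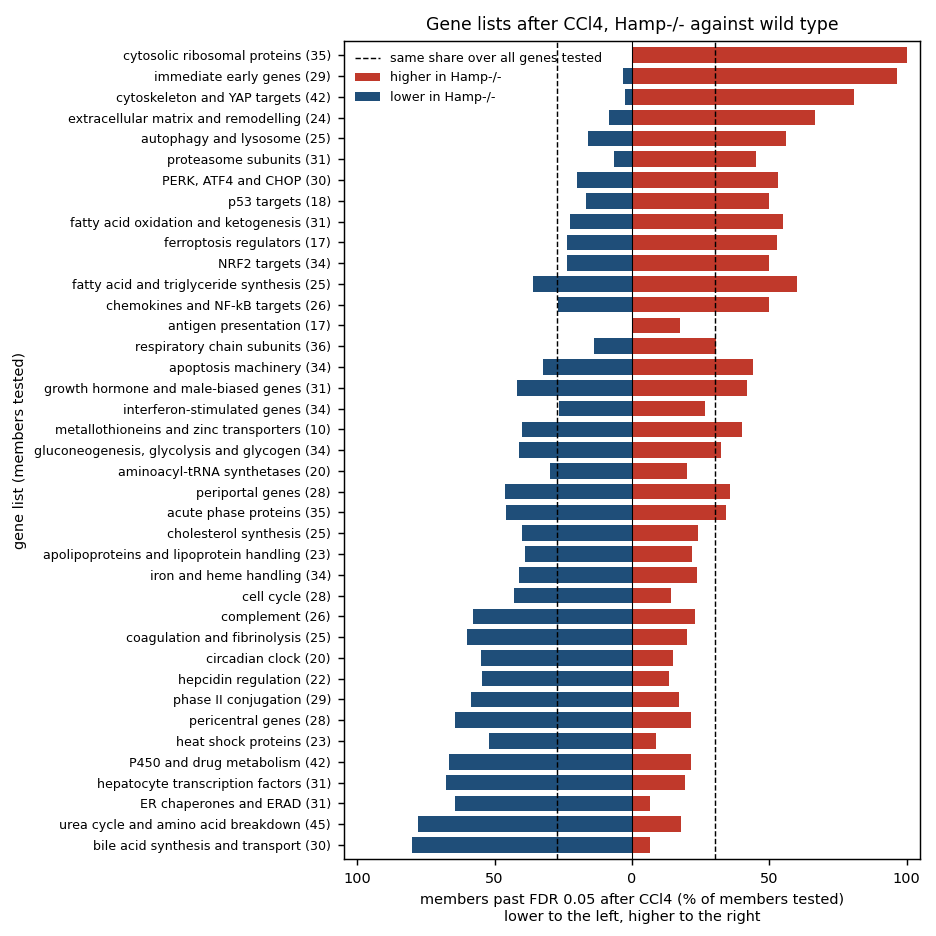
Share of the tested members of each of the pathway lists, without the cell type marker lists, called higher (red, to the right) or lower (blue, to the left) in Hamp-/- hepatocytes after CCl4, in % of the members tested, with that number in parentheses. Dashed lines show the shares over all genes tested, 30.3% higher and 27.4% lower; among these lists, ribosomal proteins and immediate early genes extend farthest to the right, bile acid and amino acid genes farthest to the left.

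Of 25 tested genes of fatty acid synthesis 15 rose and 9 fell, 60% and 36%, and of 31 genes of fatty acid oxidation 17 rose and 7 fell, 54.8% and 22.6%. Over all genes these shares were 30.3% and 27.4%. Both lists stood higher in the knockout in oil already. There 18 synthesis genes were higher and 4 lower, and 25 oxidation genes higher and 2 lower, against 22% and 10.8% of all genes. The median differences were 0.47 and 0.31 after CCl4, and 1.14 and 0.65 in oil. Plin2, the main lipid droplet coat, had 1168 and 1336 FPKM in the knockout and 99.2 and 98.7 FPKM in the wild type (3.64 ± 0.10, adjusted p = 1.9e-06). Fabp1, the fatty acid carrier of the liver, rose by 2.15, and by 2.30 in oil. Scd1, a desaturase, rose by 1.84, while Fasn, the fatty acid synthase, had 5.99 and 6.47 against 30.2 and 30.6 FPKM (-2.12 ± 0.07, adjusted p = 3.7e-06) and had been 1.14 higher in oil. Srebf1, the factor that drives Fasn, fell by 2.22.

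Of 34 genes of glucose and glycogen metabolism 11 rose and 14 fell, 32.4% and 41.2%, against 30.3% and 27.4% of all genes tested. The share that rose was near that of all genes. In oil 20 of them were higher in the knockout and 3 lower, against 22% and 10.8% of all genes tested. Pck1, which commits carbon to glucose synthesis, had 1864 and 2106 against 810 and 791 FPKM (1.31 ± 0.08, adjusted p = 3.8e-05). Ppp1r3b, which brings phosphatase to glycogen, fell by 4.2, while its relative Ppp1r3g above had risen, and Pygl, which breaks glycogen down, fell by 1.85. Differences of Pck1 and Fabp1 were as large in oil, with terms of genotype by treatment at adjusted p = 0.48 and 0.35.

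Acute phase genes were called in both directions after CCl4, whereas most were lower in the knockout in oil. Of 35 tested members 12 rose and 16 fell after CCl4, 34.3% and 45.7%, with a median of -0.21, against 7 and 24 and a median of -1.11 in oil. Over all genes tested, 30.3% rose and 27.4% fell after CCl4, and 22% and 10.8% in oil. The acute phase share that rose after CCl4 was thus near that of all genes. The term of genotype by treatment was called positive for 23 and negative for 5, against 14.7% and 18.9% of all genes tested. The wild-type libraries given oil were about as high in Saa2 and Lcn2 as those given CCl4.

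Saa2, serum amyloid A2, had 6882 and 8067 FPKM in the knockout and 19809 and 18583 FPKM in the wild type after CCl4 (-1.36 ± 0.10, adjusted p = 6.2e-05). In oil it had 224 and 225 FPKM in the knockout and 22918 and 24091 FPKM in the wild type. Saa1, its near-identical neighbour, and Saa3 were chosen after their values were seen: Saa1 had a difference of -1.09 after CCl4 and -5.89 in oil, and Saa3 of 1.58 after CCl4 and -4.46 in oil. Reads of Saa1 and Saa2 may be shared. In these genes the wild type given oil was as high as the wild type given CCl4, and the knockout given oil stood alone at the bottom.

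Lcn2, which captures bacterial iron carriers, had 1621 and 1922 FPKM in the knockout and 2130 and 2133 FPKM in the wild type after CCl4 (-0.27 ± 0.10, adjusted p = 0.046), against 24.8 and 27.0 and 1835 and 1868 FPKM in oil. The Lcn2 call after CCl4 was lost without knockout replicate 1 (-0.15, adjusted p = 0.15), either wild-type CCl4 library (adjusted p = 0.15 and 0.16) or either wild-type oil library (0.087 for each). Hp, haptoglobin, had a difference of -0.92 after CCl4 and -2.46 in oil. Saa4, a constitutive family member, and Orm2, an orosomucoid, went further: Saa4 fell by 3.69 to 19.5 and 21.8 FPKM from 282 and 273 FPKM, and Orm2 fell by 2.94. Of 26 chemokines and NF-kB targets 13 rose and 7 fell, 50% and 26.9%, against 30.3% and 27.4% of all genes tested. The share of this list that fell was thus near that of all genes. Cxcl1, a neutrophil attractant, had 1.24 and 0.89 against 32.2 and 30.5 FPKM (-3.97 ± 0.12, adjusted p = 2.3e-06), and Cxcl12 fell by 3.72.

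Immediate early genes were higher in the knockout nearly without exception, 28 of 29 tested members rising and 1 falling: Socs3, a brake on cytokine signals, fell by 0.93 and was named after its value was seen. Those counts are 96.6% and 3.45% of the list, against 30.3% and 27.4% of all genes tested. The median difference of the immediate early genes was 1.15 after CCl4 and 1.33 in oil. Fos had 71.7 and 79.1 against 12.7 and 11.4 FPKM after CCl4 (2.55 ± 0.09, adjusted p = 3.7e-06), and 80.0 and 84.5 against 1.38 and 1.38 FPKM in oil. Maff, a small MAF factor, had 72.4 and 82.0 against 4.76 and 3.85 FPKM (3.88 ± 0.16, adjusted p = 6.6e-06). All 4 knockout libraries were high for Fos, whereas Maff was highest in the knockout libraries given CCl4.

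Genes of the cytoskeleton and targets of YAP rose in 34 of 42 tested members and fell in 1, with a median of 1.01 and of 0.36 in oil. These are 81% and 2.38% of the list, against 30.3% and 27.4% of all genes tested. Members that fell numbered 4 without knockout replicate 2 and 5 with GC and length trends removed, when 34 and 31 rose. Tubb2a, a beta tubulin, had 523 and 601 against 81.9 and 76.1 FPKM (2.81 ± 0.13, adjusted p = 1.1e-05). Anxa5, a calcium-dependent membrane binder, rose by 2.75. Of 24 genes of matrix and its remodelling 16 rose and 2 fell, 66.7% and 8.33%, against the same shares of all genes. Tubb2a was separated between the genotypes, as were 80.7% of all genes tested. The summed macrophage, endothelial and stellate cell markers given further on were higher in the same knockout libraries, and their part was not tested.

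Cell cycle genes did not follow: 4 of 28 rose and 12 fell, 14.3% and 42.9%, against 30.3% and 27.4% of all genes tested. Ccnd1, cyclin D1, had 11.8 and 12.4 FPKM in the knockout and 33.0 and 35.0 FPKM in the wild type (-1.42 ± 0.09, adjusted p = 3.4e-05). In oil the order was the reverse, at 6.11 and 6.09 against 0.74 and 0.89 FPKM. Both genotypes had more Ccnd1 after CCl4 than in oil, and the knockout had the smaller rise (genotype by treatment term -3.39, adjusted p = 1.1e-05).

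Of 34 tested NRF2 targets 17 rose and 8 fell, 50% and 23.5%, against 30.3% and 27.4% of all genes tested. The share of NRF2 targets that fell was thus near that of all genes. Gclc, the catalytic subunit that makes glutathione, had 252 and 210 against 73.0 and 73.9 FPKM (1.63 ± 0.11, adjusted p = 5.5e-05), while its partner Gclm had 42.7 and 44.5 against 93.8 and 89.0 FPKM (-1.05 ± 0.07, adjusted p = 4.1e-05). The subunits of this enzyme thus moved in opposite directions. Mt1 and Mt2, the metallothioneins that bind zinc and copper, rose by 2.54 and 2.63, with Mt1 at 3031 and 3721 against 620 and 537 FPKM. In oil the Mt1 difference was -0.62.

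All 35 tested cytosolic ribosomal protein genes were higher, by 0.77 in the median, whereas 4 were called in oil with a median of 0.18. Over all genes tested, 30.3% were called higher after CCl4 and 22% in oil. Rps6 had 361 and 387 against 213 and 210 FPKM (0.82 ± 0.07, adjusted p = 1.8e-04), and Rpl37 rose by 1.09. Without knockout replicate 2 and with GC and length trends removed, 35 were higher as well, and 34 after quantile normalization. Many ribosomal protein genes have processed pseudogenes that can take their reads. The genotype by treatment term was called positive for 20 of these genes and negative for none, against 14.7% and 18.9% of all genes tested.

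Macrophage and sinusoidal endothelial markers were higher in the knockout of both treatments. Over all genes tested, 30.3% were called higher and 27.4% lower after CCl4, and 22% and 10.8% in oil. Of 23 tested Kupffer cell and macrophage markers 19 were higher after CCl4 and none was lower, and the 25 in the table summed to 750 and 903 FPKM in the knockout and 301 and 312 FPKM in the wild type. Marco, a macrophage scavenger receptor, had 63.0 and 75.9 against 7.34 and 7.53 FPKM (3.06 ± 0.19, adjusted p = 3.8e-05), and Cd5l rose by 2.89. All 14 tested sinusoidal endothelial markers were higher, summing over the 23 in the table to 65.0 and 61.2 against 14.1 and 14.8 FPKM. Cdh5, VE-cadherin, had 4.93 and 5.36 against 0.60 and 0.59 FPKM, Stab2 rose by 1.46 and Lyve1 by 2.14. Testing needed at least 1 FPKM in 2 of the 4 CCl4 libraries, and Cdh5, Stab2 and Lyve1 reached that in the knockout alone. For such markers the filter largely set the direction, so the count of 14 carries little. The sums hold tested and untested markers alike.

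In oil the same sums were 421 and 536 against 49.3 and 56.9 FPKM for macrophage markers and 101 and 126 against 17.7 and 21 FPKM for endothelial markers. Stellate and fibroblast markers summed to 20.3 and 20.2 against 5.96 and 5.57 FPKM after CCl4, with 4 of 4 tested members higher. The filter could pass such low markers through the knockout alone, so that count carries little. Of the 18 markers, 1 was listed at 0 in both knockout libraries. Neutrophil and monocyte markers summed to 169 and 188 against 146 and 148 FPKM, with 8 of 18 higher and 3 lower, and 2 higher and 1 lower in oil. Cholangiocyte markers summed to 46.5 and 24.5 against 44.0 and 45.3 FPKM, with 1 of 4 tested members higher and 1 lower. Lymphocyte markers, of which 2 were tested, summed to 6.3 and 6.17 against 6.29 and 6.35 FPKM. Erythroid markers went the other way and summed to 37.7 and 43.1 against 90.4 and 84.1 FPKM, with 4 of 5 lower. Hepatocyte markers summed to 124400 and 117100 against 98030 and 98180 FPKM, and 5 of 21 rose and 10 fell. The macrophage and endothelial sums and the matrix and immediate early lists were higher in the knockout of both treatments, and the part of these cells in those lists was not tested. The summed cytoskeleton and YAP list was higher in the knockout after CCl4, at 3637 and 4172 against 1581 and 1553 FPKM, but lower in oil, at 681 and 741 against 868 and 890 FPKM. A sum weighs the most abundant members most. Counted by member, that list was mostly higher in oil too, with 21 called higher, 9 lower and a median difference of 0.36. The part of other cells in it was not tested. Slc40a1, which macrophages express as well, was called in neither treatment (adjusted p = 0.58 in oil).

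**Figure D4:**
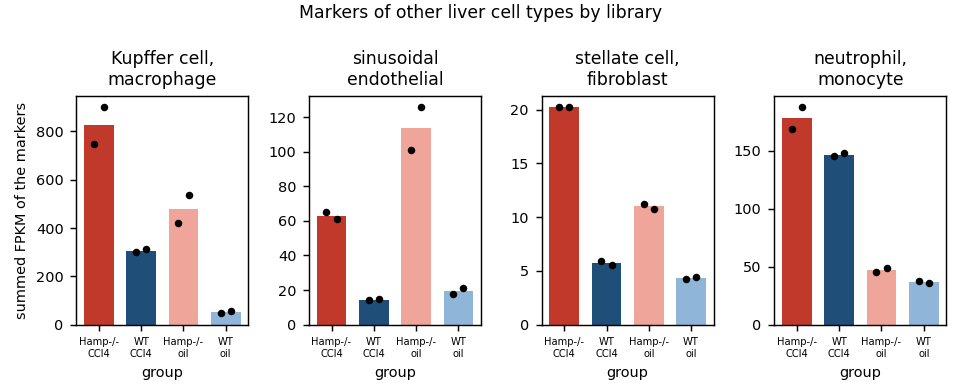
Summed FPKM of the markers of 4 other liver cell types in each library (points) with the mean of the 2 libraries of a group (bars). Macrophage and endothelial sums are higher in Hamp-/- than in wild-type hepatocytes after CCl4 and in oil, and neutrophil and monocyte sums differ mainly between CCl4 and oil.

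The genotype difference after CCl4 was compared with the one in oil, which shares no library with it. Of the genes called after CCl4, 2343 were called in oil too, 41.6% of the calls after CCl4 and 73.5% of those in oil. Of these, 1888 had the same direction and 455 the opposite. The difference itself was tested by the genotype by treatment term, which was called for 3265 genes (33.5%), 1428 more positive after CCl4 and 1837 more negative, and for 2763 of the genes called after CCl4. Hspa5 and Atf3 lay near equal differences, and Eif2ak3, Tnfrsf12a, Afp, Cyp2e1 and Baat did not. Of the chaperone list 3 of 31 members had a called term, whereas 8 of the 29 immediate early genes had a positive and 15 a negative term. For Inmt the direction turned, from 906 and 1125 FPKM against 360 and 374 in oil to 19.6 and 10.8 against 299 and 277 after CCl4.

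**Figure D5:**
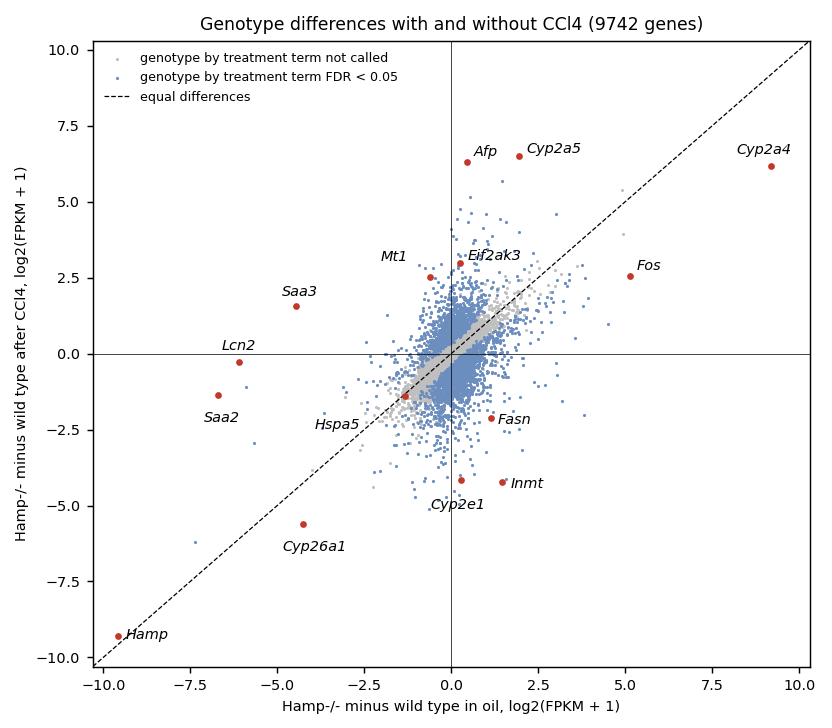
Genotype difference in oil (horizontal) against genotype difference after CCl4 (vertical), both in log2(FPKM + 1), with 1 point for each of 9742 genes; blue points passed FDR 0.05 for the genotype by treatment term and the dashed line marks equal differences. Hamp lies on the line, Eif2ak3, Afp and Cyp2a5 above it, Cyp2e1, Inmt and Fasn below it, and Lcn2 and Saa2 far to the left, where the oil difference was the larger.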

How the data were processed

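Hepatocyte RNA libraries were grouped by strain and treatment from the sample titles. The authors deposited FPKM per gene, per the file headers; the build was mm8, as the submitters' processing notes give it, with no aligner or counter named there. The 1 row that named no gene was left out, and 16337 genes remained. Low FPKM values did not fall on steps of whole reads, so no count test was run. limma 3.58.1 (R 4.3.3) was fitted to log2(FPKM + 1) over all 8 libraries in 4 groups, with 4 residual and 2.60 prior degrees of freedom, for genes reaching 1 FPKM in 2 or more of the 4 CCl4 libraries. Tests were two-sided with Benjamini-Hochberg adjustment over 9742 genes at FDR 0.05. The fit was also run on simulated data with independent noise of the same spread in all groups. The wider, GC-linked spread of the knockout replicates was not simulated, so that run cannot show the error rate under it. Alternatives covered scaling, a pseudocount of 0.1, no filter, FDR 0.01, a 2-fold minimum, library weights, replicate blocks, left-out libraries and removal of GC and length trends; the last, the crossed and knockout-only blocks and the joint removal of knockout replicate 2 were chosen after seeing the data.

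The comparison, the 47 gene lists and the rule for named genes were chosen with earlier results of these data known, and Crebl2 was taken off the chaperone list because it is no gene of that compartment. Named genes were fixed stress and iron genes, the 12 largest increases and decreases among well expressed genes, up to 6 members with the smallest adjusted p of each list, and members of the iron, PERK and apoptosis lists; some that met the rule are not reported here. Of 1242 list symbols, 1231 were found. Symbols follow the table (Hfe2 is Hjv). Replicate deviations of the CCl4 groups correlated with r = -0.250, and of the oil groups with 0.228, over 2 pairs each, so the numbers were not treated as pairing.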

Additional observations from a re-analysis of the deposited data

Results flagged for a closer look

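For 91 genes named above the genotype difference after CCl4 differed from the genotype difference in oil, tested by the genotype by treatment term of limma at FDR 0.05 over 9742 genes. The values are the first difference minus the second, on the log2(FPKM + 1) scale, so that a positive value means a more positive difference after CCl4. Over all genes 33.5% passed this test. Many named genes were chosen for a large or clear difference after CCl4, which enters this term. A larger share among the named genes is therefore set in part by that choice. No explanation was tested for any of the 91 genes.

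Among stress and death genes the term was 2.74 for Eif2ak3, 3.63 for Tnfrsf12a, 2.23 for Gdf15 and 1.85 for Plk3. It was 1.73 for Bcl2l1, 1.53 for Bbc3, 1.40 for Bax and 1.26 for Bid, 0.94 for Cdkn1a and 0.53 for Atf4. Negative terms were -2.49 for Cth, -1.63 for Fas, -1.31 for Atf5, -1.17 for Shmt2 and -0.35 for Eif2ak1.

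Among iron, heme and acute phase genes it was 6.04 for Saa3, 5.84 for Lcn2, 5.34 for Saa2, 4.81 for Saa1 and 2.72 for Orm2. The term was 1.64 for Id2, 1.53 for Hp, 1.17 for Hamp2, 1.03 for Fth1 and 0.99 for Ftl1, 0.92 for Id3 and 0.42 for Stat3. The Hamp2 value depends on the pseudocount, since that gene was listed at 0 in both knockout libraries given CCl4. It was -3.12 for Steap4, -2.22 for Alas1, -2.10 for Saa4, -1.94 for Atoh8 and -1.89 for Hfe2, -1.54 for Cpox, -1.13 for Aco1, -1.12 for Alad and -0.61 for Id1.

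Of the genes with the largest differences it was 5.84 for Afp, 4.59 for Cidec, 4.57 for Cyp2a5, 4.22 for Pdk4 and 4.05 for Hilpda. The term was 3.58 for Nid1, 3.22 for Ly6d, 3.04 for Rab30, 2.77 for Acot2 and 1.59 for Igfbp1. It was -5.67 for Inmt, -5.18 for Cyp2c50, -4.90 for Hsd3b3, -4.58 for Cyp2c54 and -4.47 for Apol7a, and -3.69 for Slco1b2, -3.39 for Sult2a8, -3.02 for Cyp2a4 and -1.36 for Cyp26a1. The Cyp2a4 difference in oil was 9.20, larger than after CCl4.

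In drug, bile acid and amino acid metabolism it was -4.46 for Cyp2e1, -4.24 for Cyp8b1, -3.44 for Baat, -3.36 for Cyp1a2 and -3.32 for Bhmt. Further terms were -2.88 for Cyp2c29, -2.74 for Hpd, -2.02 for Cyp27a1, 0.70 for Abcg5 and 1.39 for Got1. Among transcription factors it was -2.64 for Nr1i3, -1.75 for Nr0b2, -1.12 for Hnf4a and -1.04 for Nr1h4, against 2.22 for Bhlhe41.

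In lipid and glucose metabolism the term was 3.02 for Plin2, against -3.67 for Ppp1r3b, -3.26 for Fasn, -2.66 for Pygl and -2.08 for Scd1, and -1.35 for Srebf1. Among chemokines it was -4.62 for Cxcl1 and -3.33 for Cxcl12. Growth, cytoskeleton and matrix genes gave 3.57 for Tubb2a, 2.72 for Maff and 2.06 for Anxa5, and -3.39 for Ccnd1 and -2.58 for Fos. Antioxidant and metal binding genes gave 3.16 for Mt1, 2.65 for Mt2, 1.74 for Gclc and -1.20 for Gclm. Ribosomal proteins gave 0.75 for Rps6 and 0.77 for Rpl37, and the endothelial marker gave -0.67 for Stab2. The early gene that fell gave -3.32 for Socs3.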

How the results depend on the processing

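After CCl4, 5627 genes were called, and 4978 to 6891 were under the scaling, pseudocount, filter, weighting, block, GC and CCl4-libraries-only alternatives, 3949 to 6189 without 1 library each; 1731 were called at 2-fold or more, 774 higher and 957 lower. At FDR 0.01 there were 3913, 1737 of them lower. The calls lower in the knockout ranged from 1739 to 3154 without 1 library each, lowest without wild-type replicate 1 of the CCl4 group, and those higher from 2164 to 3035. The replicate block gave 5954 calls and changed no call of a named gene. The crossed pairing gave 6343.

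The genotype by treatment term was called for 3265 genes, 3436 with the replicate block, 3963 with the crossed pairing, 1792 at FDR 0.01, 1238 at 2-fold or more and 1949 to 3802 without 1 library each. The lowest of these were without wild-type CCl4 replicate 1 (2093) or 2 (1989) and without wild-type oil replicate 1 (1998) or 2 (1949). It rose to 5733 with a block in the knockout alone and 5117 without knockout replicate 2 of both treatments; the cause was not tested.

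Of 123 named genes, 111 kept their direction and call under all 19 alternatives, which for single genes left out FDR 0.01 and the 2-fold minimum. Many of these genes were named for a large difference or a small adjusted p in the same values. Their stability was thus set in large part by that choice and does not describe genes at large. Genes that turned direction were not called in the values given above. They were Ddit3 (-0.0078 without knockout replicate 2, and again without that replicate of both treatments, -0.050 to 0.19 without 1 library each, -0.13 with GC and length trends removed), Id1 (0.036 with quantile normalization, 0.035 with equal medians, -0.085 to 0.074 without 1 library each, where knockout replicate 1 gave 0.019) and Slc40a1 (-0.042 to 0.49 without 1 library each). Tmprss6 had -0.0097 to 0.30 without 1 library each, -0.0097 without knockout replicate 2 of both treatments and -0.057 with GC and length trends removed, and Usf2 -0.059 with those trends removed. Usf2 had 0.32 (adjusted p = 0.038) without knockout replicate 1. With the block in the knockout alone, Hfe (-0.20, adjusted p = 0.042) and Slc40a1 (0.42, adjusted p = 5.8e-04) gained calls. Tfrc and Xiap also lost their calls with a pseudocount of 0.1 or no filter, and Lcn2 with no filter, equal medians or the 4 CCl4 libraries alone. Depth is unknown, so levels below 1 FPKM are the least certain.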
